A study of Mus musculus with 7 samples.

Results

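Glucocorticoid-responsive genes were examined in the cervical spinal cord of mice with a human SOD1 transgene, to ask whether loss of the long non-coding RNA *Neat1* came with a different readout of the stress hormone axis at the time of collection. The 10 genes were taken by name: *Nr3c1*, which encodes the glucocorticoid receptor, and 9 genes known to respond to it, *Fkbp5*, *Sgk1*, *Tsc22d3*, *Zbtb16*, *Pdk4*, *Hif3a*, *Nfkbia*, *Errfi1* and *Plin4*. All 10 were found among the 55487 genes of the count table, and all 10 were among the 18449 genes with enough reads to be tested. The groups were *Neat1*-KO; hSOD1G93A (4 libraries, replicates 1 to 4) and *Neat1*-WT; hSOD1G93A (3 libraries, replicates 2 to 4), each from mice that were 8 weeks old. Both groups carried the hSOD1G93A transgene, a mutant human SOD1 used as a model of familial amyotrophic lateral sclerosis, and no mice without it were analysed here, so the values describe *Neat1* loss on that background only. The knockout allele was inherited through the germline and so was not limited to a cell type, and each library was made from bulk tissue. No corticosterone value, hour of collection or sex was given for these mice in the labels.

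As background, corticosterone from the adrenal gland enters cells and binds the glucocorticoid receptor, which waits in the cytoplasm in a complex with Hsp90 and its co-chaperones. The bound receptor moves to the nucleus and, at many target genes, sits as a dimer on a palindromic DNA element. Its classical targets include brakes on the hormone itself, brakes on inflammation, and enzymes that shift fuel use, and in the spinal cord they are expressed by glia, endothelial cells and neurons alike. Most of the 9 targets also take other inputs. *Nfkbia* responds to NF-kB, *Pdk4* to PPAR receptors and fasting, *Hif3a* to hypoxia, and *Sgk1* to growth factors, osmotic stress and neuronal activity.

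The libraries held 19661878 to 26031517 counted reads, and scaling factors between libraries ran from 0.991 to 1.0083. Levels are given as counts-per-million (CPM) after scaling with TMM factors, and values of a group are given in the order of its replicate numbers. For *Neat1* itself the knockouts read 5.08, 5.40, 5.52 and 4.04 CPM, and the wild types read 86.1, 80.5 and 118 CPM. Each library therefore matched its label. *Xist*, the transcript of the inactive X chromosome, had 0 to 4 reads in every library, and the Y-linked *Ddx3y* and *Eif2s3y* were read in all of them. By these transcripts every library read as male. *Ddx3y* was at 39.9 CPM in *Neat1*-KO replicate 4, where the remaining libraries lay between 75.7 and 94.3 CPM. *Eif2s3y* was also lowest there, at 12.2 CPM against 19.6 to 33.2 CPM. The same library also stood apart in several of the genes described here, so genotype values that rest on it are given with and without it. Spinal cord glia were well represented in every library, with all 9 astrocyte markers and all 9 oligodendrocyte markers read throughout. Skeletal muscle transcripts were present at a low level in *Neat1*-WT replicate 4, where the 8 muscle markers summed to 20.9 CPM against 2.51 to 3.26 CPM elsewhere.

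No member passed the test for a difference between the genotypes. By edgeR's quasi-likelihood test, 0 of 10 passed an adjusted p under 0.1 with an absolute log2 fold change above 0.58, where 0.0325% of all genes tested passed (6 of 18449). The count at an unadjusted p under 0.05 was also 0 of 10, against a background of 4.64%. DESeq2 called 0 of 10 (background 0.146%) and limma-voom called 0 of 10 (background 0.0325%). DESeq2 gave no adjusted p for *Hif3a* and *Plin4*, so it could not call them. The libraries of the genotypes overlapped for each of the 10, while they were apart for 5.47% of all genes tested. The adjusted p of the members in the edgeR test ran from 0.992 to 0.998, and 4 members were nominally higher and 6 nominally lower in *Neat1*-KO. The median log2 fold change of the 9 targets was -0.006, beside 0.006 over all genes tested. Two-sided exact permutation p-values of the members ran from 0.286 to 0.971. In bulk tissue, fewer cells of a type and less RNA per cell cannot be told apart.

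**Figure D1:**
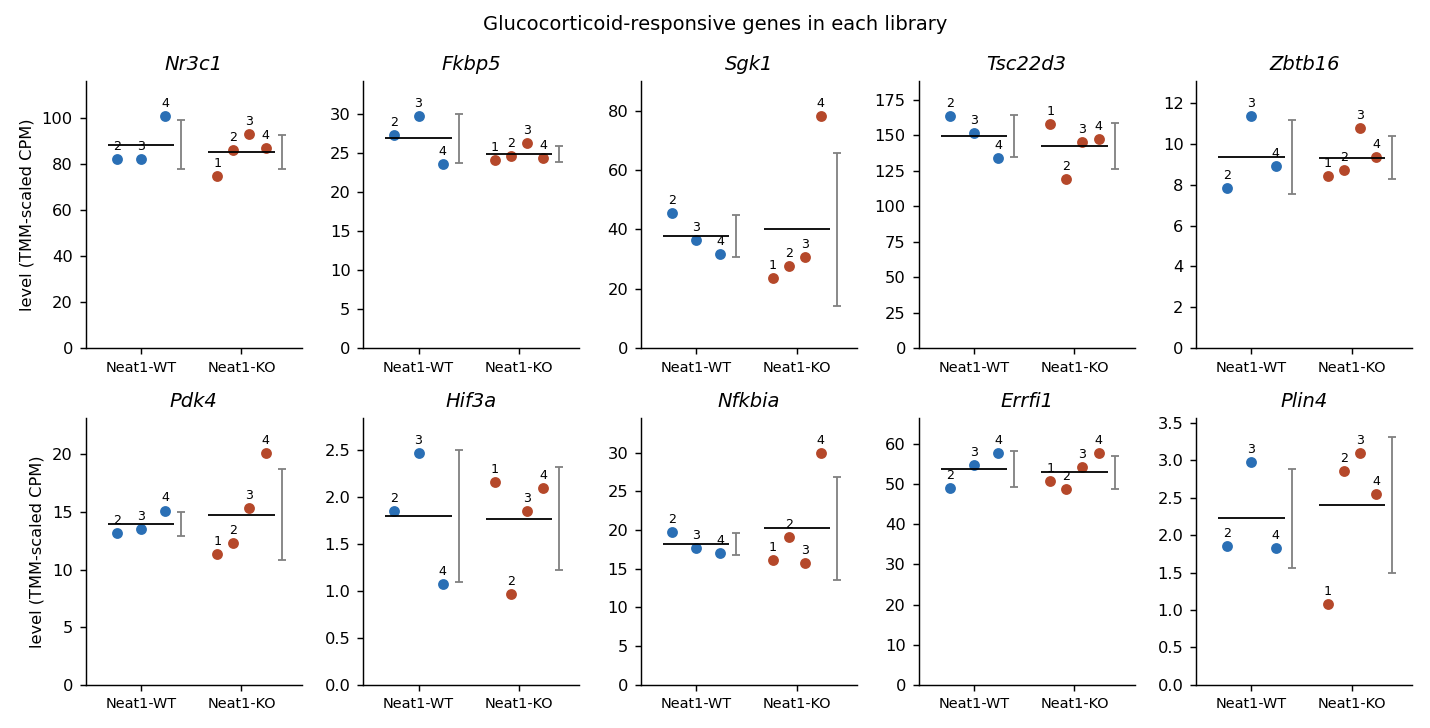
Level of each of the 10 genes in each library, in TMM-scaled CPM on axes that start at 0, for *Neat1*-WT (blue, n = 3) and *Neat1*-KO (red, n = 4). Numbers above the points are replicate numbers, black lines are group means and grey bars are ±1 SD; the groups overlap in every panel, and replicate 4 of *Neat1*-KO is the highest point for *Sgk1*, *Pdk4*, *Nfkbia* and *Errfi1*.

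The receptor came first. *Nr3c1* (ENSMUSG00000024431) had 75.0, 86.3, 93.0 and 87.1 CPM in the knockout libraries, beside 82.5, 82.3 and 101 CPM in the wild type. The highest library was a wild-type mouse and the lowest a knockout, and the other 5 lay between them without separation. Its log2 fold change was -0.05 with a 95% interval from -0.26 to 0.16 (edgeR adjusted p = 0.992). A receptor change of the size required for a call, 0.58 on the log2 scale, lay outside that interval.

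*Fkbp5* (ENSMUSG00000024222), on chromosome 17 at 28399094 to 28517527 of GRCm38, encodes an Hsp90 co-chaperone that lowers the affinity of the receptor for its hormone and is induced by it. It was steady across the mice, at 24.1, 24.6, 26.3 and 24.3 CPM in *Neat1*-KO and 27.3, 29.8 and 23.5 CPM in *Neat1*-WT. The 4 knockout libraries lay within the range of the 3 wild-type libraries. From the lowest to the highest of the 7 mice the level rose 1.26-fold, the smallest such span of the members after *Errfi1* at 1.19-fold. The log2 fold change between genotypes was -0.11 (SE 0.10, 95% interval -0.32 to 0.10, edgeR adjusted p = 0.992), and the two-sided exact permutation test gave p = 0.286, where 35 assignments of the libraries allow no p below 0.0286.

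*Tsc22d3* (ENSMUSG00000031431, chromosome X at 140539528 to 140600659) encodes GILZ, a leucine zipper protein that carries part of the anti-inflammatory action of glucocorticoids. Its level was 158, 119, 145 and 147 CPM in *Neat1*-KO and 164, 152 and 134 CPM in *Neat1*-WT. Both groups spanned most of the same range, and the difference was -0.07 on the log2 scale (95% interval -0.29 to 0.14). *Zbtb16* (ENSMUSG00000066687, chromosome 9 at 48654297 to 48836222), a transcriptional repressor also known as PLZF, was at 8.42, 8.74, 10.8 and 9.37 CPM in *Neat1*-KO and 7.82, 11.4 and 8.91 CPM in *Neat1*-WT. The wild-type libraries held both its lowest and its highest value, and its log2 fold change was -0.006 (95% interval -0.34 to 0.33). *Errfi1* (ENSMUSG00000028967, chromosome 4 at 150853919 to 150868892), a feedback inhibitor of the EGF receptor, was at 50.9, 48.6, 54.3 and 57.8 CPM in *Neat1*-KO and 48.9, 54.8 and 57.7 CPM in *Neat1*-WT. It varied least across mice, and its difference of -0.02 had an interval from -0.22 to 0.17.

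*Sgk1* (ENSMUSG00000019970), on chromosome 10 at 21882184 to 21999903 of GRCm38, encodes the serum- and glucocorticoid-regulated kinase, which acts on ion channels and transporters. It varied most. The *Neat1*-KO libraries were at 23.5, 27.6, 30.5 and 78.2 CPM and the *Neat1*-WT libraries at 45.4, 36.4 and 31.6 CPM. Replicate 4 of *Neat1*-KO was thus above every other library, and the other 3 knockout libraries were below all 3 wild-type libraries. With all 7 libraries the log2 fold change was 0.09 (SE 0.33, 95% interval -0.63 to 0.80, edgeR adjusted p = 0.996). Without replicate 4 of *Neat1*-KO it was -0.47 (edgeR unadjusted p = 0.00606, adjusted p = 1.0). *Sgk1* was then the 1 member of 10 at an unadjusted p under 0.05, where 3.19% of genes were, and the 1 member whose genotypes did not overlap, where 7.65% of genes did not. Replicate 4 was singled out for its high values, *Sgk1* among them, so these values describe the remaining libraries and are no test of genotype. With any other single library left out, the edgeR unadjusted p of *Sgk1* was 0.389 or more. The sign of the difference in *Sgk1* was also negative with limma-voom on all 7 libraries (-0.06) and without *Neat1*-WT replicate 4 (-0.03), and no version passed correction.

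*Sgk1* also carried the clearest receptor element of the set. RefSeq promoter windows (GRCm38.p6, 250 bases before to 50 after a start site) were held for 8 of the 10 genes, 16 windows in all, with 6 of them at alternative starts of *Sgk1*. They were searched on both strands for the palindromic glucocorticoid response element, AGAACA followed after 3 bases by TGTTCT, and for each 6-base arm alone. The full element without a mismatch was found in 3 of 32851 windows genome-wide (0.00913%), and 1 of those 3 was an *Sgk1* window, with the element at -189 to -175 from its start. The bases before that start are shown with the element's arms in capitals and a further TGTTCT near the upstream end in lower case. They are followed by a window of the most upstream *Sgk1* start and a window of *Tsc22d3*, each of which held a single arm, and by the bases before the *Fkbp5* start, which held none.
Sgk1, chr10:21993640-21993889, plus strand: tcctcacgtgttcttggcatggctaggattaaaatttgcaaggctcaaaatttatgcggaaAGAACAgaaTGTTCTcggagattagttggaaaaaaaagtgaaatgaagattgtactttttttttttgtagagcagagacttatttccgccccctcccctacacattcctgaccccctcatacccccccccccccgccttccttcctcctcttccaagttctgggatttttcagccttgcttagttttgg
Sgk1, chr10:21881949-21882034, plus strand: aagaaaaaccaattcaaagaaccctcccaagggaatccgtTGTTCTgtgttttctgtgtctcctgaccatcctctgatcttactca
Tsc22d3, chrX:140600662-140600747, minus strand: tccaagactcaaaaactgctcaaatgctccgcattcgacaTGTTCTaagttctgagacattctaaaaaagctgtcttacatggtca
Fkbp5, chr17:28486150-28486249, minus strand: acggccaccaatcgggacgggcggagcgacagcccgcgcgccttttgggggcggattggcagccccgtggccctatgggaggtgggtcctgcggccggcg
An arm was present in 4 of the 16 member windows (25%) and in 19% of all windows. An element with at most 3 mismatches in its 12 fixed letters was present in 4 of the 16 (25%) and in 14.5% of all windows, and with at most 2 mismatches in 2 of the 16 (12.5%) and 1.84%. Of the 4 windows with an arm 3 were alternative starts of *Sgk1*, as were 3 of the 4 with at most 3 mismatches and both with at most 2. These matches describe letters in short windows, and elements outside them were not searched.

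The remaining targets of intermediate and low level followed either pattern. *Nfkbia* (ENSMUSG00000021025, chromosome 12 at 55489410 to 55492647) encodes the inhibitor that holds NF-kB in the cytoplasm. Its level was 16.1, 19.05, 15.8 and 30.02 CPM in *Neat1*-KO and 19.8, 17.7 and 17.0 CPM in *Neat1*-WT. Replicate 4 of *Neat1*-KO again stood above the other 6, which lay within 4 CPM of each other. The log2 fold change was 0.16 (SE 0.19, 95% interval -0.26 to 0.58, edgeR adjusted p = 0.992) and became -0.10 without that library. *Pdk4* (ENSMUSG00000019577, chromosome 6 at 5483351 to 5496309), a kinase that switches off pyruvate dehydrogenase and so spares glucose, was at 11.3, 12.3, 15.3 and 20.2 CPM in *Neat1*-KO and 13.2, 13.5 and 15.1 CPM in *Neat1*-WT. Its highest value also came from replicate 4, with a log2 fold change of 0.09 (95% interval -0.29 to 0.46) that became -0.10 without it.

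*Hif3a* (ENSMUSG00000004328, chromosome 7 at 17031507 to 17062427), a member of the hypoxia-inducible factor family, was low, with 21 to 55 reads per library, and stood at 2.16, 0.966, 1.85 and 2.095 CPM in *Neat1*-KO and 1.85, 2.47 and 1.07 CPM in *Neat1*-WT. *Plin4* (ENSMUSG00000002831, chromosome 17 at 56100591 to 56109803), a lipid droplet coat protein, had 21 to 71 reads per library and stood at 1.08, 2.86, 3.11 and 2.55 CPM in *Neat1*-KO and 1.85, 2.98 and 1.83 CPM in *Neat1*-WT. Each genotype spanned much of the full range of both genes. At these counts their intervals, -0.77 to 0.70 for *Hif3a* and -0.59 to 0.83 for *Plin4*, reached past the fold required for a call in both directions. The interval of the more deeply read *Sgk1* did so too. A difference of that size was therefore not excluded for these genes. The adipocyte markers *Adipoq*, *Plin1*, *Cidec*, *Retn*, *Cfd*, *Lep* and *Fabp4* were at 0 to 0.229 CPM in all libraries, and the last of the 8, *Car3*, was at 1.13 to 4.87 CPM.

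**Figure D2:**
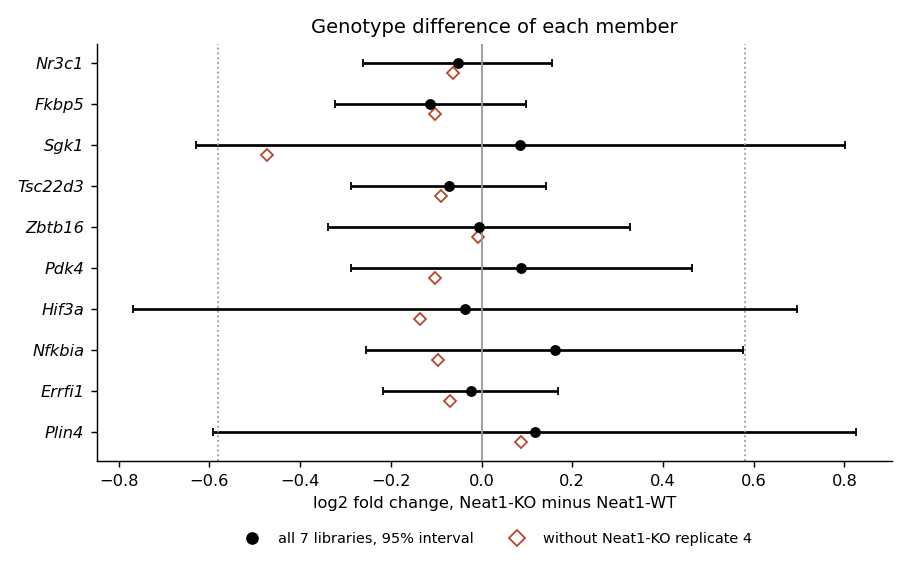
Log2 fold change of *Neat1*-KO over *Neat1*-WT for each gene, from edgeR with all 7 libraries (black circles, bars are 95% intervals) and without *Neat1*-KO replicate 4 (open diamonds). Dotted lines mark ±0.58, the fold required for a call; every interval includes 0, and *Sgk1* moves from 0.09 to -0.47 when replicate 4 is left out.

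Compared per exon length, as CPM per kilobase of exon (RPKM), the genes spanned about 2 orders of magnitude. *Tsc22d3* was highest at 33.6 ± 3.45 (SD over the 7 libraries) and lay clear of the next gene in every library. *Errfi1* (14.9 ± 1.08), *Nfkbia* (12.02 ± 3.06), *Nr3c1* (11.3 ± 1.09) and *Sgk1* (7.96 ± 3.80) followed, and each of these overlapped its neighbour in the order. *Pdk4* (4.11 ± 0.827), *Fkbp5* (2.72 ± 0.235) and *Zbtb16* (1.77 ± 0.244) came next, each without overlap with the gene that followed. *Plin4* (0.402 ± 0.130) and *Hif3a* (0.265 ± 0.0838) were lowest and overlapped each other.

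**Figure D3:**
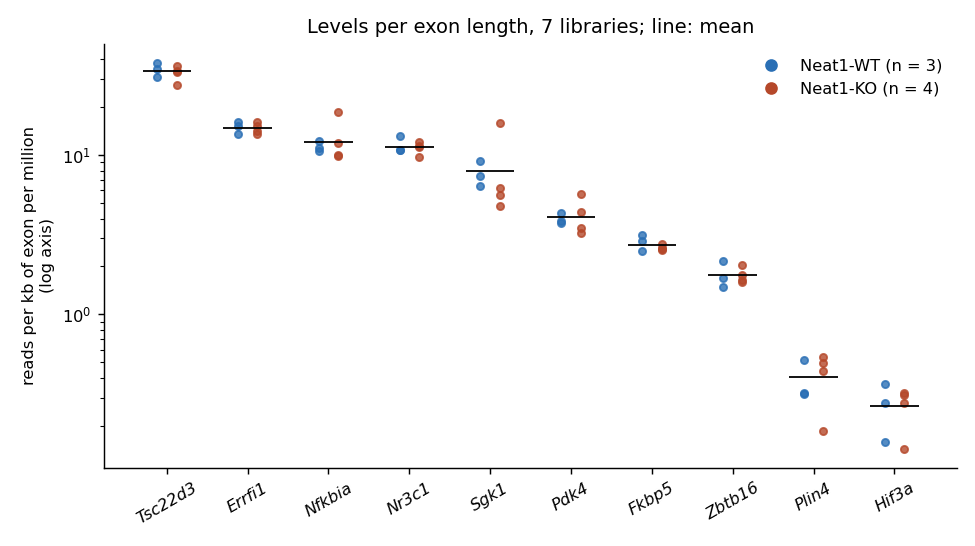
Level of each gene per exon length (CPM per kb of exon, log axis), a point per library (blue *Neat1*-WT, n = 3; red *Neat1*-KO, n = 4), with the mean of the 7 libraries as a line. *Tsc22d3* is highest, at 27.5 to 37.7, and *Hif3a* lowest, at 0.144 to 0.368.

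The spread between mice of the same genotype separated the members more than genotype did. The within-genotype SD of log2(CPM + 0.5) was 0.62 for *Sgk1*, which exceeded that of 99.6% of the 3394 genes within 1.5-fold of its mean level. It was 0.33 for *Nfkbia* (above 97.7% of genes of like level) and 0.29 for *Pdk4* (above 93.7%). The genes of low level *Plin4* and *Hif3a* had SDs of 0.47 (above 93.7%) and 0.43 (above 88.9%). For *Fkbp5* it was 0.12, which exceeded only 37.2% of genes of like level. Leaving out *Neat1*-KO replicate 4 lowered the SD of *Sgk1* to 0.23, of *Nfkbia* to 0.13 and of *Pdk4* to 0.17, and left *Fkbp5* at 0.13, while those of *Plin4* and *Hif3a* were 0.52 and 0.46. That library was singled out for its high values in such genes, so the lower SDs are a description only.

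The pattern of *Neat1*-KO replicate 4 was followed through a wider list of 30 glucocorticoid targets, of which 29 were tested. It is a description of a single mouse, chosen after its values were seen. Replicate 4 was the highest library for 4 of the 9 target members and for 13 of the 30 wider targets, whereas it was highest for 11.4% of all genes tested. Some of these leads were slight, as for *Errfi1*, at 57.8 CPM against 57.7 CPM in the next library. The library was also highest for 6 of 15 immediate early genes, 5 of 15 clock genes and 6 of 19 PPAR and fasting genes, so the order was not limited to glucocorticoid targets. *Sgk1* in this library was 2.41 times the mean of the other 6, *Nfkbia* 1.71 times and *Pdk4* 1.50 times. Of the wider targets, *Txnip*, which restrains glucose uptake, stood at 31.4 CPM against 11.03 to 19.97 CPM in the others. *Angptl4*, an inhibitor of lipoprotein lipase, was at 3.31 CPM against 1.34 to 1.95 CPM. The clock gene *Per1*, which has a receptor element of its own, was at 44.1 CPM against 22.5 to 30.4 CPM. *Ddit4*, an inhibitor of mTORC1, was at 69.6 CPM against 41.5 to 57.2 CPM. Other targets did not share this order. *Fkbp5* in replicate 4 was at 24.3 CPM, near the bottom of the other libraries' range of 23.5 to 29.8 CPM, and *Zbtb16*, *Tsc22d3*, *Klf9* and *Mt1* also lay inside the range of the others. *Mfsd2a*, a lipid transporter of brain endothelium, was lowest there, at 30.8 CPM against 37.2 to 50.6 CPM, as was the connexin *Gjb6* at 70.3 CPM against 81.6 to 98.2 CPM.

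**Figure D4:**
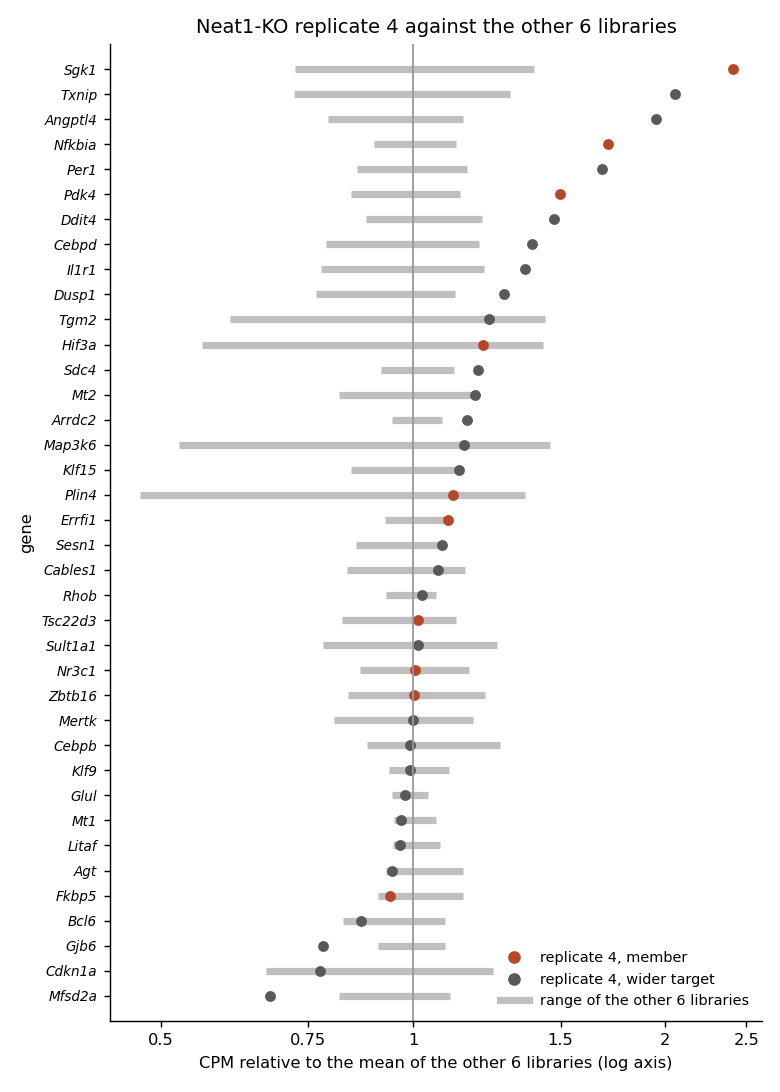
Level of each member (red) and wider target (dark grey) in *Neat1*-KO replicate 4, relative to the mean of the other 6 libraries (log axis), for the genes with a mean of at least 1 CPM. Pale bars span the other 6 libraries. *Sgk1*, *Txnip*, *Angptl4*, *Nfkbia*, *Per1*, *Pdk4* and *Ddit4* are among the genes to the right of their bars. Others, such as *Cebpd*, *Dusp1* and *Errfi1*, lie there by less. *Mfsd2a* and *Gjb6* lie to the left, and *Fkbp5* lies inside its bar.

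Other genes were also highest in that library. Among 16542 tested genes with a mean of at least 1 CPM, ranked by how far replicate 4 exceeded the highest of the other 6, *Sgk1* was number 6, *Nfkbia* number 18, *Per1* number 24 and *Pdk4* number 48. The genes ranked above *Sgk1* were *Pyroxd2*, *Vwf*, *Myh11*, *Sp7* and *Apold1*, named after their values were seen. *Vwf*, von Willebrand factor of endothelial cells, was at 45.3 CPM against 6.98 to 24.5 CPM, and *Myh11*, smooth muscle myosin, at 15.8 CPM against 4.66 to 8.71 CPM. The activity-dependent genes *Egr1* (47.4 against 22.1 to 32.3 CPM) and *Nr4a1* (15.0 against 7.70 to 10.7 CPM) were highest there too. The marker lists of vessels were mixed. The 6 mural markers summed to 153 CPM in replicate 4, within the 146 to 186 CPM of the others, and the 8 endothelial markers summed to 217 CPM, the lowest of the 7 libraries (others 220 to 261 CPM). *Rgs5* made up 89.6 CPM of the mural sum in replicate 4, so the sum says little of the other mural markers. Replicate 4 was highest for 2 of the 6 mural markers (*Acta2* and *Myh11*) and 0 of the 8 endothelial markers, beside 11.4% of all genes tested. The share of mitochondrial counts was 4.195% in this library and 3.69% to 5.24% in the others. It was also the most deeply read library. The part of these differences, and of the low *Ddx3y*, in the levels of *Sgk1*, *Nfkbia* and *Pdk4* was not tested. The number of genes that exceeded all other libraries by more than 0.58 on the log2 scale was 19 for this library and 8 to 18 for the others.

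**Figure D5:**
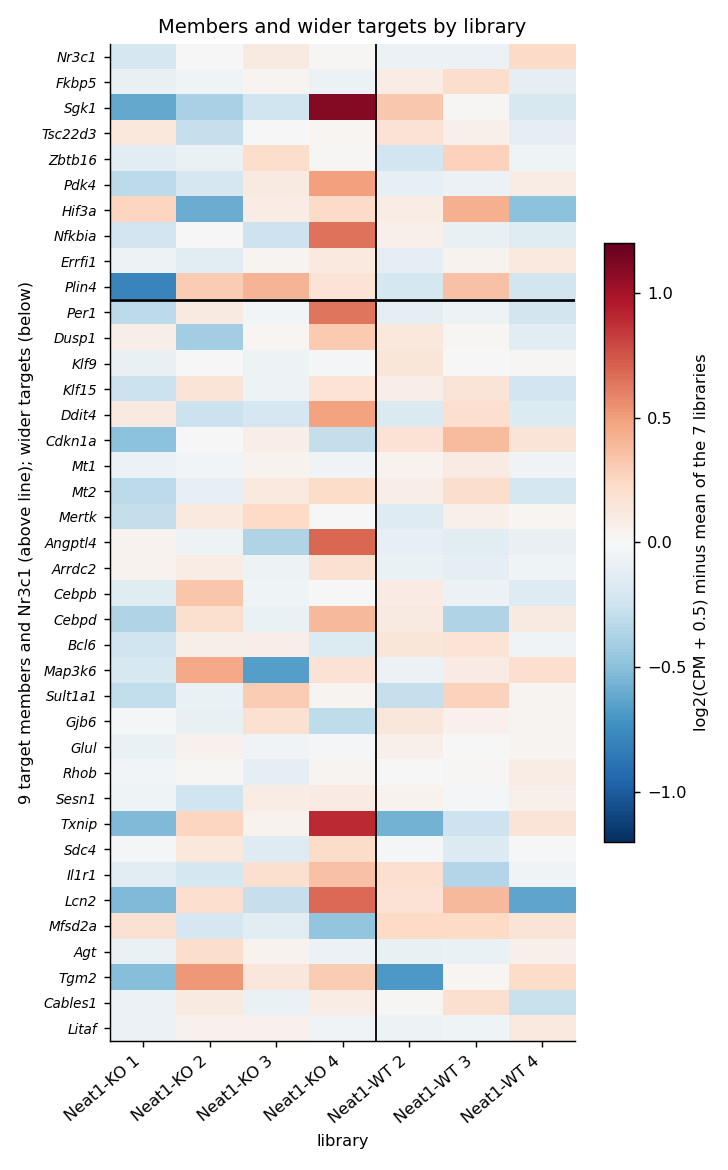
Members (above the line) and wider glucocorticoid targets (below) in each library, coloured by log2(CPM + 0.5) minus the mean of the 7 libraries. The red cells of *Neat1*-KO replicate 4 mark *Sgk1*, *Nfkbia*, *Pdk4*, *Per1*, *Ddit4*, *Angptl4*, *Txnip* and *Lcn2*, while the *Fkbp5*, *Klf9* and *Mt1* cells are pale in all 7 libraries.

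*Neat1*-KO replicate 1 was at the other end of the wider list. It was lowest for 12 of the 30 wider targets and for 3 of the 9 target members, where it was lowest for 18.4% of all genes tested. The 12 include *Tat*, which had 0 reads there and in most other libraries. The library was also lowest for 7 of 15 immediate early genes and 6 of 18 receptor machinery genes, so its low readings were not limited to glucocorticoid targets. Of 19 PPAR and fasting genes it was lowest for 2. Its members at the bottom were *Sgk1*, *Pdk4* and *Plin4*, along with the receptor gene *Nr3c1*. This library had the lowest total count of the series, and its meningeal fibroblast markers summed to 94.2 CPM, where the remaining 3 knockouts had 193 to 255 CPM, with 85.4 to 277 CPM in the wild-type libraries. The part of these values in the low readings was not tested.

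No relation between *Fkbp5* and another member across the mice passed its test. Across the 7 libraries, *Fkbp5* was compared with each of the other 9 by Pearson's r of log2(CPM + 0.5), and 0 of 9 passed an exact permutation test after Benjamini-Hochberg adjustment over the 9. The highest was *Hif3a* with r = 0.56 (exact permutation p = 0.176, adjusted p = 0.802; Spearman's rho 0.29, permutation p = 0.556, adjusted p = 0.715), then *Zbtb16* with r = 0.52 (exact permutation p = 0.226, adjusted p = 0.802; rho 0.29, permutation p = 0.556, adjusted p = 0.715). *Sgk1* had r = 0.10 (exact permutation p = 0.824, adjusted p = 0.824; rho 0.32, permutation p = 0.498, adjusted p = 0.715) and *Nr3c1* had r = -0.28 (exact permutation p = 0.533, adjusted p = 0.824; rho -0.36, permutation p = 0.444, adjusted p = 0.715). By rank the highest was *Plin4* with rho 0.68 (permutation p = 0.1095, adjusted p = 0.715), and its r was 0.45 (exact permutation p = 0.325, adjusted p = 0.802). Of the remaining 4, r was 0.42 for *Tsc22d3* and about -0.15 for *Pdk4*, *Nfkbia* and *Errfi1*. Without the 2 libraries farthest from the *Fkbp5* median, *Neat1*-WT replicates 2 and 3, r was 0.27 for *Hif3a*, 0.84 for *Zbtb16*, -0.07 for *Sgk1* and 0.04 for *Nr3c1*. Centred within genotype, the values were 0.62, 0.59, 0.07 and -0.43 in the same order. The genes most like *Fkbp5* across the 7 libraries, of 16541 compared, were the metallothionein *Mt1* (r = 0.96), *Nme6* (r = 0.95), *4930577N17Rik* (r = 0.95), *Cfap300* (r = 0.94) and *1700007K13Rik* (r = 0.93). They are given as a description only, of libraries that also differed in depth. *Mt1* belongs to the wider target list and was nearly level, at 205 to 230 CPM. Between *Sgk1* and *Nfkbia*, r was 0.91 over 7 libraries and 0.61 without *Neat1*-KO replicate 4, and between *Sgk1* and *Pdk4* it was 0.82 and 0.39. Some other pairs moved little without that library. They read 0.84 and 0.85 for *Tsc22d3* and *Hif3a*, 0.77 and 0.73 for *Pdk4* and *Errfi1*, and 0.68 and 0.69 for *Zbtb16* and *Plin4*. Others moved far, with 0.715 and -0.24 for *Pdk4* and *Nfkbia*, 0.097 and 0.66 for *Fkbp5* and *Sgk1*, and 0.287 and -0.582 for *Nfkbia* and *Errfi1*. These pairs were picked from 36 after their values were seen and were given no test.

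The machinery that delivers the hormone to the receptor was read next to it. Of 18 such genes 17 were tested, 0 were called by edgeR, and 1 had an unadjusted p under 0.05, where 4.64% of all genes tested did. That gene was *Hsp90aa1*, an isoform of the receptor's chaperone, at 1571, 1302, 1525 and 1404 CPM in *Neat1*-KO and 1753, 1669 and 1528 CPM in *Neat1*-WT, with a log2 fold change of -0.19 (edgeR unadjusted p = 0.0351, adjusted p = 0.992). The second chaperone isoform *Hsp90ab1* and the co-chaperones *Stip1*, *Ppid*, *Ptges3* and *Fkbp4* had log2 fold changes of -0.13, -0.17, -0.19, -0.18 and -0.11, and none of them passed the test. The knockout and wild-type libraries of *Hsp90ab1* did not overlap, as was so for 5.47% of all genes tested. The other partners of the chaperone in the list, *Ppp5c* and *Stub1*, had log2 fold changes of 0.10 and 0.06. *Hsd11b1*, which regenerates active hormone inside cells, was at 27.7 to 39.4 CPM with a log2 fold change of 0.04, and *Hsd11b2*, which inactivates it, had 0 to 3 reads per library and was not tested. The mineralocorticoid receptor gene *Nr3c2*, whose protein binds the same hormone, was at 40.9 to 49.1 CPM with a log2 fold change of 0.05. The median over the 17 was 0.02.

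Of the 29 wider targets tested, 0 were called and 2 had an unadjusted p under 0.05 in edgeR, where 4.64% of all genes tested did. Of the 29, 16 were nominally higher and 13 nominally lower, with a median log2 fold change of 0.015. *Cdkn1a*, a cell cycle inhibitor, had a log2 fold change of -0.41 (edgeR unadjusted p = 0.0101, adjusted p = 0.962), with 15.1, 21.4, 22.8 and 17.5 CPM in *Neat1*-KO and 24.2, 28.2 and 23.9 CPM in *Neat1*-WT. All 4 knockout libraries were below all 3 wild-type libraries, while the genotypes were apart in either direction for 5.47% of all genes tested. *Mfsd2a* had a log2 fold change of -0.35 (edgeR unadjusted p = 0.0149, adjusted p = 0.992), with replicate 1 of *Neat1*-KO inside the range of the wild type and the other 3 below it. *Dusp1*, *Klf9*, *Klf15*, *Mt1* and *Mt2*, which are commonly read as hormone targets in the nervous system, had log2 fold changes of 0.02, -0.10, 0.001, -0.06 and -0.04. The liver enzyme gene *Tat* had 0 reads in 6 libraries and was not tested.

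The other inputs to the same genes were read from 5 further lists, and edgeR called 0 genes in each. Over all genes tested, 4.64% had an unadjusted p under 0.05. For NF-kB, 14 of 18 genes were tested and 1 had an unadjusted p under 0.05, with a median log2 fold change of 0.10. *Nfkb1*, *Rela* and *Cxcl10* had log2 fold changes of 0.03, 0.04 and 1.13, the last at 0.255 to 1.21 CPM. For PPAR and fasting, 18 of 19 were tested, 2 had an unadjusted p under 0.05 and the median was 0.09, with *Acadl*, an enzyme of fatty acid oxidation, at 0.23 (edgeR adjusted p = 0.936). For hypoxia, 14 of 15 were tested, 1 had an unadjusted p under 0.05 and the median was 0.02, with *P4ha1*, a collagen hydroxylase, at -0.36 (edgeR adjusted p = 0.914). For immediate early genes, all 15 were tested, 0 had an unadjusted p under 0.05 and the median was 0.04. For clock genes, all 15 were tested, 3 had an unadjusted p under 0.05 and the median was 0.14. Besides *Dbp*, these were *Nr1d1* at 0.26 (edgeR unadjusted p = 0.0177, adjusted p = 0.992) and *Arntl* at -0.30 (edgeR unadjusted p = 0.0183, adjusted p = 0.992), in opposite directions. *Dbp*, a clock output gene, was at 47.3, 80.6, 54.6 and 90.5 CPM in *Neat1*-KO and 36.0, 38.6 and 41.3 CPM in *Neat1*-WT. The groups did not overlap, as was so for 5.47% of all genes tested. The log2 fold change of *Dbp*, 0.82, had an adjusted p of 0.485 in edgeR. Without *Neat1*-KO replicate 1 it was 0.96 and passed, at an adjusted p of 0.0204 by edgeR. The hour of collection of each mouse was not given in the sources used here, and its part in *Dbp* or in the members was not tested.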

How the data were processed

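RNA-seq counts of 7 libraries were analysed, and titles in the labels gave the groups. Paired-end reads of poly(A)-selected, directional libraries had been trimmed with Trimmomatic 0.38 and aligned with HISAT2 2.1.0 to mm10, and featureCounts 1.6.3 had counted the uniquely mapped ones. The counts per gene were deposited unnormalized. The strand setting and the annotation release of the counting were not given in the sources used here. Gene symbols, positions and exon lengths came from GENCODE M21 (55227 of 55487 identifiers matched), and promoter sequences from RefSeq. Only *Plin4* shared exon bases with another gene, 17 bases with *Hdgfl2* on the opposite strand.

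Genes with low counts were dropped with filterByExpr, libraries were scaled with TMM factors, and genotypes were compared with edgeR's quasi-likelihood test (edgeR 4.0.16), with Benjamini-Hochberg adjustment over 18449 genes. Called genes had an adjusted p under 0.1 with a log2 fold change beyond 0.58 in either direction. Intervals cover 95%. DESeq2 1.42.0 and limma-voom (limma 3.58.1) were alternatives, along with other scaling factors, filters, a robust dispersion, a replicate block, a covariate for *Xist* and each library left out. Single genes were also compared by exact permutation of 35 assignments, and correlations by exact permutation of 5040 pairings on log2(CPM + 0.5).

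Whether replicates were separate mice was taken from the labels' replicate numbers, and p-values measure the spread between these libraries. The members and lists were chosen with earlier results of these data known. The text names all members, and any tested gene of the receptor machinery and wider target lists could be named. From each other list, the called genes could be named, or else the 2 with the highest mean CPM and the 1 with the smallest p. Not every gene that this rule allows was named, and the adipocyte markers were named in full. *Egr1*, *Nr4a1*, *Acta2*, *Arntl* and the genes highest in *Neat1*-KO replicate 4 were named after their values were seen. A marker gene that this rule would name is not reported here.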

Additional observations from a re-analysis of the deposited data

Results flagged for a closer look

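The level in a single library of the 4 *Neat1*-KO libraries was far from the other 3 for 3 of the 56 genes examined in this way (the 10 members and the tested receptor machinery and wider targets), where chance alone gives about 1 in 20. *Sgk1* was far above the others in *Neat1*-KO replicate 4, at 78.2 CPM against 23.5 to 30.5 CPM, with a gap that took up 0.871 of the group's range. *Fkbp4* was above the others in *Neat1*-KO replicate 1, at 222 CPM against 186 to 191 CPM, with a ratio of 0.852, and *Neat1*-WT replicate 3 was higher still at 240 CPM. *Abcb1a*, an efflux pump of vessel walls that exports glucocorticoids, was below the others in *Neat1*-KO replicate 1, at 26.2 CPM against 34.2 to 35.1 CPM, with a ratio of 0.903, and *Neat1*-WT replicates 2 and 3 were at 27.4 and 27.0 CPM. *Nfkbia* in *Neat1*-KO replicate 4 reached 0.772 and *Pdk4* 0.546, short of the critical ratio for 4 samples. No cause was tested.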

How the results depend on the processing

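The number of members called was 0 under all 18 alternatives, and the median log2 fold change of the 9 targets stayed between -0.096 and 0.075. In DESeq2, *Hif3a* and *Plin4* had no adjusted p and could not be called. Members at an unadjusted p under 0.05 numbered 3 with *Xist* as a covariate and 0 to 1 with each library left out. The 3 were *Sgk1*, *Pdk4* and *Nfkbia*, with log2 fold changes of 0.711, 0.439 and 0.503, the highest of any alternative. The *Xist* term rests on 0 to 4 reads per library, in libraries that all read as male, and so is no measure of sex. Calls among the other lists numbered 0, and 8 without the filter on low counts (*Dbp*, *Myh11* and 6 skeletal muscle genes), 1 with the replicate block (*Dbp*) and 0 to 1 with each library left out. Of 160 alternative fold changes of the members 24 turned sign, all of members that were not called. With limma-voom *Sgk1* was -0.063 and *Zbtb16* 0.006. With the replicate block *Nr3c1* was 0.009 and *Zbtb16* 0.051. With *Xist* as a covariate *Nr3c1* was 0.027, *Hif3a* 0.062 and *Errfi1* 0.075. With each library left out the log2 fold change ranged from -0.105 to 0.049 for *Nr3c1*, -0.474 to 0.266 for *Sgk1*, -0.148 to 0.003 for *Tsc22d3*, -0.122 to 0.158 for *Zbtb16*, -0.102 to 0.191 for *Pdk4*, -0.297 to 0.259 for *Hif3a*, -0.096 to 0.263 for *Nfkbia*, -0.089 to 0.027 for *Errfi1* and -0.024 to 0.386 for *Plin4*. Of 99 alternative correlations with *Fkbp5* 8 turned sign. Spearman's rho of *Nfkbia* was 0.179, and with each library left out r ranged from -0.684 to 0.076 for *Nr3c1*, -0.067 to 0.660 for *Sgk1*, -0.017 to 0.895 for *Zbtb16*, -0.393 to 0.139 for *Pdk4*, -0.288 to 0.276 for *Nfkbia* and -0.472 to 0.1 for *Errfi1*. Same-numbered libraries of the genotypes did not deviate together (correlations -0.239, -0.162 and -0.0119 for replicates 2, 3 and 4). Libraries with different numbers gave -0.278 to 0.213, so these correlations cannot show whether the samples were paired. The block changed no call of a member. The causes of these shifts were not tested.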

Other observations

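Cell type markers were read beside the members, and edgeR called 0 genes in each list. Over all genes tested, 4.64% had an unadjusted p under 0.05. Among motor neuron markers, 6 of 6 were tested, all 6 were nominally lower in *Neat1*-KO and 3 had an unadjusted p under 0.05. The median log2 fold change was -0.25, with *Slc18a3*, the vesicular acetylcholine transporter, at -0.30 (edgeR unadjusted p = 0.00533, adjusted p = 0.840), *Slc5a7* at -0.40 and *Prph* at -0.20. Among oligodendrocyte markers, 3 of 9 had an unadjusted p under 0.05 and the median was -0.16, with *Mbp* at -0.13 and *Cldn11* at -0.25. *Neat1*-WT replicate 4 was highest for 6 of the 9, beside 15.05% of all genes tested. The 9 summed to 35949, 39422 and 43984 CPM in *Neat1*-WT replicates 2, 3 and 4, and to 34297 to 37263 CPM in *Neat1*-KO.

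The medians were 0.010 for 9 astrocyte markers, 0.069 for 9 microglia markers, 0.009 for 8 endothelial markers, 0.080 for 6 mural markers, 0.24 for 8 meningeal fibroblast markers, -0.026 for 7 neuron markers and -0.20 for 5 blood markers. Of the adipocyte, skeletal muscle and sensory ganglion lists 1, 2 and 2 genes were tested, with medians of 0.076, -1.01 and -0.32. These are values of whole lists, and their part in the levels of the members was not tested.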
